A study of Homo sapiens with 4 samples.

Results

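Ligands of the epidermal growth factor (EGF) family and the ERBB receptors that they bind were followed in SUM159 cells, an established mesenchymal line of triple-negative breast cancer. The 10 genes were listed by name, with earlier results of these data known. They are the receptors EGFR, ERBB2 and ERBB3, the EGFR ligands AREG, EREG, HBEGF, TGFA, EPGN and BTC, and the ERBB3 ligand NRG1. All 10 were found among the 60279 genes of the count tables. RNA sequencing covered 4 conditions with 1 library each, namely cells left untreated, cells given palbociclib, cells given indisulam and cells given both drugs (the combination). Palbociclib inhibits the kinases CDK4 and CDK6, and indisulam leads to degradation of the splicing factor RBM39. The doses and times were given in conflicting ways. The sample labels gave 0.5 µM palbociclib and 2 µM indisulam for 10 days. The text on the series gave 2 µM palbociclib and 3 µM indisulam for 16 h in technical duplicates. The study reports both treatments of SUM159 cells, the first for sequencing scored for senescence gene sets and the second for splicing errors. The labels match the first, but the conflict was not resolved here. The medium of all 4 conditions held serum, insulin and hydrocortisone. As there were no replicates, each comparison sets 1 library against another, and no p-value was computed.

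EGF family ligands are made as membrane-tethered precursors, and metalloproteases of the ADAM family cut them free. A ligand brings receptors together in pairs, and their kinases then phosphorylate the partner's tail, which feeds the RAS-MAPK and PI3K-AKT pathways. ERBB2 has no known ligand and acts as the favoured partner of the other receptors, whereas ERBB3 binds neuregulins but has a weak kinase and signals through its partner. AREG and TGFA bind EGFR, HBEGF, EREG and BTC bind EGFR and ERBB4, and NRG1 binds ERBB3 and ERBB4. High EGFR is a common trait of triple-negative breast cancers, and several of the ligand genes are also known as early targets of MAPK signalling.

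With the combination over untreated cells, 6 of 8 tested genes rose past a 2-fold threshold, where 13.0% of all tested genes did. All 6 are ligands, and the tested receptor transcripts did not pass it. The 6 include BTC, whose level was high enough for testing only through the combination library. Because the members were chosen with earlier results of these data known, their count beside that of all genes is not a test. EREG rose 4.17-fold with indisulam and 4.53-fold with the combination over untreated cells, and AREG rose 3.40-fold and 4.81-fold. HBEGF, TGFA and NRG1 rose with the combination, by 2.67-fold, 3.88-fold and 2.89-fold. EGFR and ERBB2 passed the 2-fold threshold in none of the 5 comparisons. AREG fell with palbociclib alone, from 36 reads in untreated cells to 17, where 4.95% of all tested genes fell. That call is lost when 5 scaled counts are added before the ratio. BTC went from 1 read in untreated cells to 49 reads with the combination.

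EPGN, EREG, AREG and BTC lie in this order within 486054 bp of chromosome 4 in GRCh38. Gaps of 48355 bp separate EPGN from EREG, 56386 bp EREG from AREG, and 289753 bp AREG from BTC, which is the only one of the 4 on the minus strand. The 250 bases before the RefSeq start site are shown for the 3 cluster genes that changed, to place their control regions beside their values. The stretches are chr4:74444886-74445135 (AREG, plus strand), chr4:74364895-74365144 (EREG, plus strand) and chr4:74794524-74794773 (BTC, minus strand), each read 5′ to 3′ towards the start site. Capitals mark matches to TGACGTCA, the cAMP response element (CRE), and to the core promoter motif TATAAA.
AREG: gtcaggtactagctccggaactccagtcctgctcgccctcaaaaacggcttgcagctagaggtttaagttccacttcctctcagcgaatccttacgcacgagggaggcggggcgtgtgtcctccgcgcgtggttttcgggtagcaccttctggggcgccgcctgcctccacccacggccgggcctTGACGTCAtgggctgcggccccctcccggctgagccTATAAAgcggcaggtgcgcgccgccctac
EREG: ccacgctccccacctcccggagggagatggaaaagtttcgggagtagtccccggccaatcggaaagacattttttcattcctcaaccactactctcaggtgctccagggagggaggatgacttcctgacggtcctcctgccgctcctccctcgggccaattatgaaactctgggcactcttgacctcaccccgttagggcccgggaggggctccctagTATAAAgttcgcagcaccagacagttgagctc
BTC: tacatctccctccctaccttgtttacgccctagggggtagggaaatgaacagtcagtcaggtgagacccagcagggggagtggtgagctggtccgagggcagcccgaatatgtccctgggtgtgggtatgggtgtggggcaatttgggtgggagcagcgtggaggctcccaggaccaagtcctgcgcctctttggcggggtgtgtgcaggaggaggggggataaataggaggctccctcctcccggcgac

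The RefSeq windows run from 250 bases before to 50 bases after a start site, and 35116 of them were searched on both strands for 6 motifs. The CRE letters of AREG began 65 bases before its start site, and they were found in 1.85% of all windows. TATAAA began 29 bases before the start of AREG and 32 bases before that of EREG, and 11.5% of all windows held it. EPGN, which had at most 4 reads in a library, also held TATAAA, 29 bases before its start. BTC had neither motif. The TEAD motif GGAATG (14.0% of windows) matched EREG once, and the SP1 motif GGGCGG (45.0%) matched once in AREG and once in BTC. The AP-1 motif TGANTCA (7.71%) and the E2F motifs TTTGGCGC and TTTCCCGC (2.27%) matched none of these 3 windows. A match is a description of the sequence and not a bound site.

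The libraries held 12555908 to 16712174 reads in genes, and 3 reads, the floor used here, correspond to 0.180 to 0.239 counts per 1000000 gene reads (CPM). Of the 10 genes, 8 reached a mean of 1 CPM and were tested. ERBB3 and EPGN did not reach it. BTC reached it only through the combination library (3.41 CPM), so that its differences were bound to be large. A log2 ratio was taken after adding 1 scaled count, its 95% interval (in brackets) covers counting error only, and a gene is said to have risen or fallen when the ratio was at least 2-fold and the interval excluded a ratio of 1. As a bound on the noise of one log2 ratio between libraries, the departure from additivity over all genes of like expression gave 0.62 at 1 to 5 CPM, 0.37 at 5 to 20 CPM, 0.26 at 20 to 100 CPM and 0.28 above. This bound has the scale of a standard deviation and is not a limit, so that a ratio beyond it can still be noise. The mesenchymal marker VIM was high (2643 to 4598 CPM), whereas the luminal markers ESR1, PGR, EPCAM and CDH1 stayed below 2 CPM and GATA3 was read at 5.52 to 13.04 CPM. CDH1 was higher with the combination than with either single drug (28 reads against 10 and 15). Of the markers of other cell types, ALB was near 0, but PTPRC of leukocytes was read at 11.1 to 17.5 CPM and PECAM1 of endothelium at 15.2 to 40.9 CPM, highest with palbociclib. The summed level of these 3 markers, 2 of which were tested, was 27.4 CPM in untreated, 53.4 CPM in palbociclib, 35.0 CPM in indisulam and 31.6 CPM in combination cells, and their part in the results was not tested. Of the 3 proliferation markers, all fell with palbociclib, where 4.95% of all tested genes fell. None passed the threshold with indisulam or the combination, where 15.2% and 23.5% of all tested genes changed. MKI67 stood at 126, 44.5, 246 and 129 CPM in untreated, palbociclib, indisulam and combination cells, TOP2A at 321, 121, 222 and 199 CPM, and CCNB1 at 132, 64.0, 215 and 155 CPM. In bulk RNA, fewer cells that express a gene and less RNA per cell cannot be told apart.

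**Figure D1:**
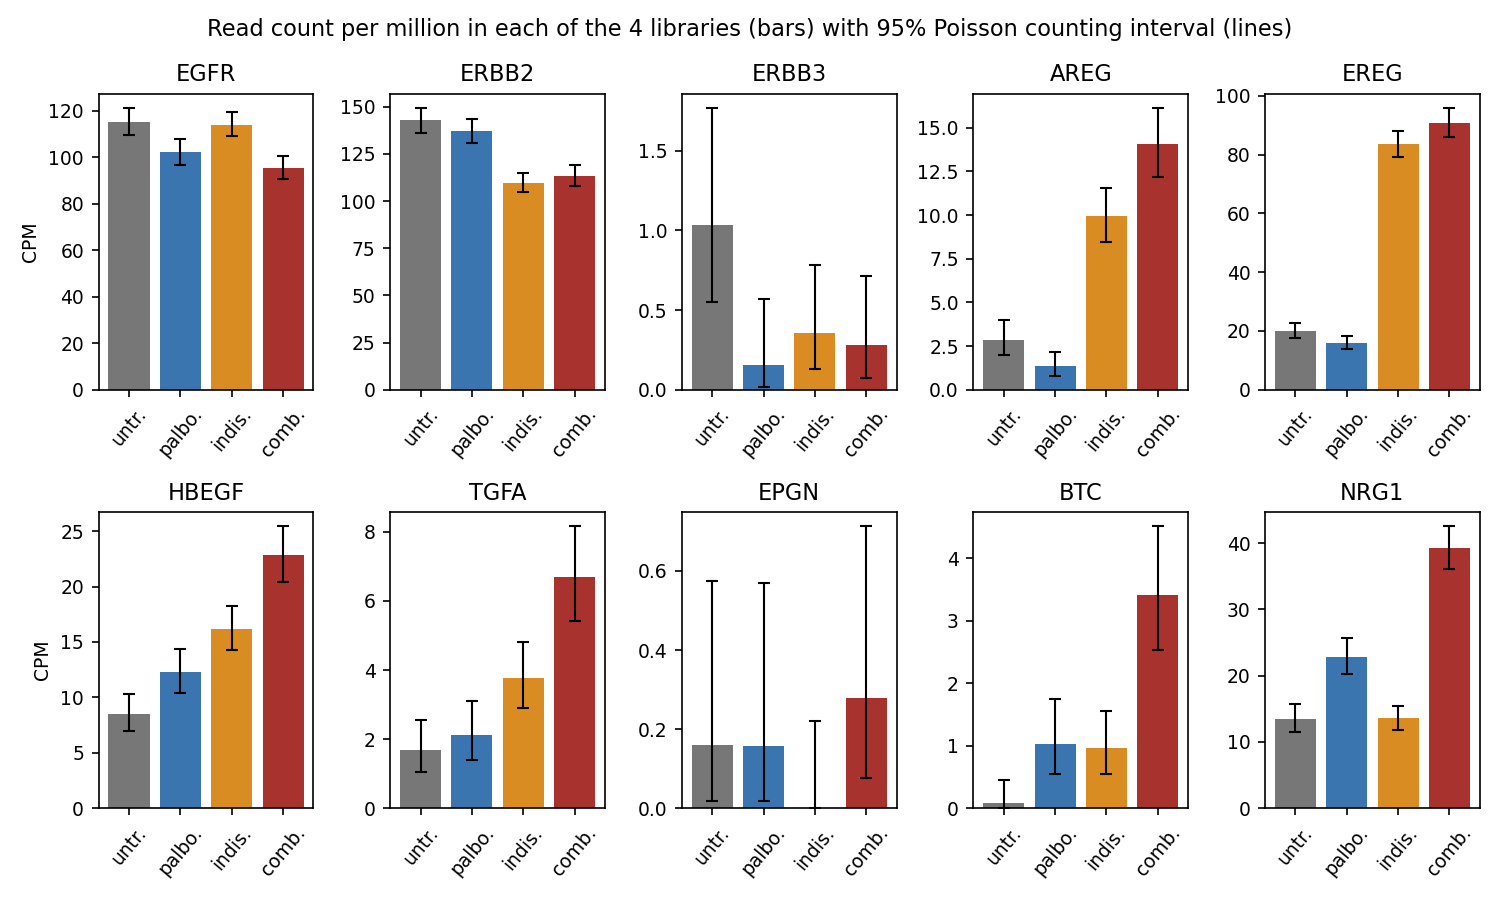
Level of each of the 10 genes in the 4 libraries in CPM, with exact 95% counting intervals. EREG, AREG and TGFA are higher in both libraries with indisulam, NRG1 is highest with the combination, and EGFR and ERBB2 stay between 95.5 and 143 CPM.

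EGFR, the receptor of 6 of the listed ligands, lies at chr7:55019017-55211628 on the plus strand. It was read at 115 CPM in untreated, 102 CPM in palbociclib, 114 CPM in indisulam and 95.5 CPM in combination cells. The 4 levels are close together, with the lowest in the combination. Against untreated cells, palbociclib gave a log2 ratio of -0.17 (-0.28 to -0.07), indisulam -0.02 (-0.11 to 0.08) and the combination -0.27 (-0.38 to -0.16), all of them within the noise bound of 0.28. Each interval excludes a 2-fold change.

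ERBB2, the receptor without a ligand, lies at chr17:39687914-39730426 on the plus strand. Its levels were 143 CPM in untreated, 137 CPM in palbociclib, 110 CPM in indisulam and 113 CPM in combination cells. Both libraries with indisulam were lower than both without it. The log2 ratios for indisulam were -0.38 (-0.48 to -0.29) against untreated cells and -0.27 (-0.37 to -0.18) for the combination against palbociclib, estimates that share no library. The first was 1.36 times the noise bound and the second was below it, and neither reached 2-fold. Exons of ERBB2 overlap MIEN1 over 571 bp and PGAP3 over 144 bp of the other strand, and whether the counting used strand is not given in the sources used here. MIEN1 had 417 reads in untreated and 618 in combination cells, and PGAP3 had 359 and 174.

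ERBB3, which pairs with ERBB2 to carry neuregulin signals, had few reads. It had 13 reads in untreated, 2 in palbociclib, 6 in indisulam and 4 in combination cells (chr12:56076799-56103505). The untreated library was the highest, at 1.04 CPM, and the others were near the floor. Without a pseudocount, the palbociclib library gave a ratio of 0.152 to untreated (exact interval 0.0167 to 0.672), the indisulam library 0.347 (0.108 to 0.978) and the combination library 0.269 (0.0639 to 0.871). ERBB3 was below the filter on low counts, and without that filter it would count as lower in all 3 comparisons with untreated cells, which all rest on the same 13 reads. ERBB4, the remaining receptor, had 0, 0, 4 and 2 reads in the same order. In the libraries, then, the receptors with substantial transcript levels were EGFR and ERBB2.

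EREG (epiregulin, chr4:74365145-74388749) had the most reads of the EGFR ligands in each library. It had 251 reads in untreated cells (19.99 CPM), 201 in palbociclib cells (15.8 CPM), 1396 in indisulam cells (83.5 CPM) and 1305 in combination cells (90.9 CPM). The libraries formed a low pair without indisulam and a high pair with it. The log2 ratio for indisulam was 2.06 (1.87 to 2.25) over untreated cells and 2.52 (2.30 to 2.73) for the combination over palbociclib, which is 7.87 and 9.61 times the noise bound. Palbociclib moved EREG by -0.33 (-0.60 to -0.07) without indisulam and by 0.12 (0.01 to 0.23) with it, neither of them past the threshold.

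AREG (amphiregulin, chr4:74445136-74455005), the neighbour of EREG, had 36 reads in untreated cells (2.87 CPM), 17 in palbociclib cells (1.34 CPM), 166 in indisulam cells (9.93 CPM) and 202 in combination cells (14.1 CPM). As with EREG, both libraries with indisulam were above both without it, and the palbociclib library was the lowest. The log2 ratio for indisulam was 1.77 (1.26 to 2.28) over untreated cells and 3.33 (2.64 to 4.01) for the combination over palbociclib. AREG fell with palbociclib, with a log2 ratio of -1.06 (-1.86 to -0.26), although the call rests on 36 and 17 reads and is lost with a pseudocount of 5 scaled counts (-0.93). With indisulam present, palbociclib gave 0.50 (0.20 to 0.79). The combination thus exceeded the sum of the single-drug log2 ratios by 1.56 (0.71 to 2.41), which is 3.00 times the spread of such departures over genes of like expression (0.52). AREG was 1 of 8 tested members to depart from additivity by at least 2-fold with an interval that excludes 0, as did 8.05% of all tested genes in either direction. BTC departed by -1.10, but its interval (-2.94 to 0.73) holds 0.

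HBEGF, the heparin-binding member of the family, lies at chr5:140332843-140346603 on the minus strand. It had 107 reads in untreated cells (8.52 CPM), 156 in palbociclib cells (12.3 CPM), 270 in indisulam cells (16.2 CPM) and 328 in combination cells (22.8 CPM). Each treated library was above the untreated one, and the combination was the highest. Against untreated cells, palbociclib gave a log2 ratio of 0.52 (0.17 to 0.88), indisulam 0.92 (0.60 to 1.24) and the combination 1.41 (1.10 to 1.73), of which only the last passed 2-fold. The departure from additivity was -0.03 (-0.45 to 0.39), so that the combination was near the sum of the single drugs on the log2 scale.

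TGFA, transforming growth factor alpha, lies at chr2:70447284-70554193 on the minus strand and was a low ligand with the same order of libraries as HBEGF. It had 21 reads in untreated cells (1.67 CPM), 27 in palbociclib cells (2.13 CPM), 63 in indisulam cells (3.77 CPM) and 96 in combination cells (6.69 CPM). TGFA rose with indisulam by 1.14 (0.45 to 1.83) and with the combination by 1.95 (1.30 to 2.61) on the log2 scale over untreated cells. These ratios are 1.83 and 3.13 times the noise bound of 0.62. The combination exceeded palbociclib by 1.62 (1.02 to 2.22). Palbociclib moved it by 0.33 (-0.46 to 1.13), an interval that holds both no change and a 2-fold rise.

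BTC (betacellulin, chr4:74744759-74794523) was nearly absent from untreated cells. It had 1 read there (0.0796 CPM), 13 in palbociclib cells (1.02 CPM), 16 in indisulam cells (0.957 CPM) and 49 in combination cells (3.41 CPM). Every treated library was above the untreated one, and the 2 single drugs gave nearly equal levels. Without a pseudocount, the palbociclib library gave a ratio of 12.9 to untreated (exact interval 1.93 to 547), the indisulam library 12.02 (1.87 to 504) and the combination library 42.8 (7.34 to 1726). The ratios that do not use the single read had narrower intervals, with the combination 3.33-fold (1.78 to 6.69) over palbociclib and 3.56-fold (1.99 to 6.71) over indisulam. Both have the combination library as numerator, and BTC reached the filter on low counts only through that library, so that they were bound to be high. EPGN (epigen, chr4:74308470-74316789) had 2, 2, 0 and 4 reads in the order untreated, palbociclib, indisulam and combination, and no ratio is given.

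NRG1 (neuregulin 1, chr8:31639222-32855666 on the plus strand) followed a different course from the EGFR ligands. It had 170 reads in untreated cells (13.5 CPM), 290 in palbociclib cells (22.8 CPM), 227 in indisulam cells (13.6 CPM) and 563 in combination cells (39.2 CPM). The untreated and indisulam libraries did not differ beyond counting error, and both libraries with palbociclib were above them. Indisulam alone gave a log2 ratio of 0.00 (-0.28 to 0.29), and palbociclib alone gave 0.75 (0.48 to 1.02), below 2-fold. NRG1 rose with the combination by 1.53 (1.28 to 1.78) over untreated cells and by 1.52 (1.30 to 1.75) over indisulam cells. The departure from additivity was 0.77 (0.42 to 1.12), which is 2.09 times the spread of departures at its level (0.37) but below 2-fold. Its receptor ERBB3 had 2 to 13 reads in a library, as given above.

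**Figure D2:**
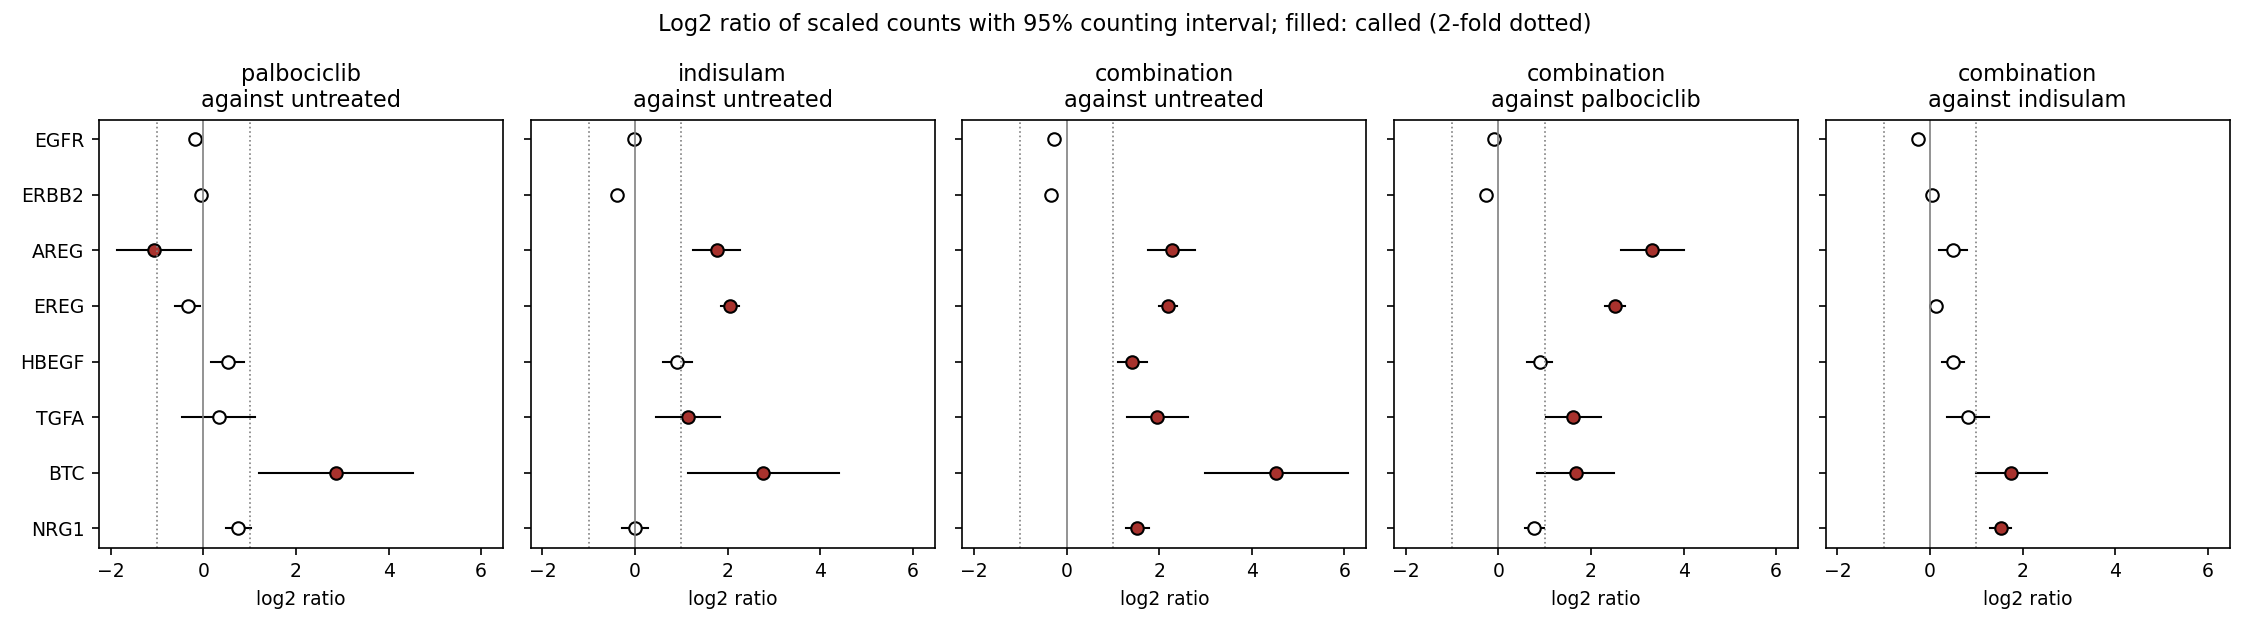
Log2 ratios of the 8 tested genes in the 5 comparisons between libraries, with 95% counting intervals, and the 2-fold threshold. All 6 tested ligands lie above the threshold for the combination against untreated, and EGFR and ERBB2 lie inside it throughout.

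Counted over the 8 tested members, 6 rose with the combination against untreated cells (AREG, EREG, HBEGF, TGFA, BTC and NRG1), where 13.0% of all tested genes rose and 23.5% changed in either direction. With indisulam 4 members rose (AREG, EREG, TGFA and BTC), against 8.44% of all genes higher and 15.2% changed. With palbociclib BTC rose and AREG fell, where 5.96% of all genes rose, 4.95% fell and 10.9% changed in either direction. Over these 8 members the log2 ratios had a median of 1.74 with the combination, 1.03 with indisulam and 0.14 with palbociclib, beside 0.05, 0.06 and -0.02 over all tested genes. These 3 comparisons share the untreated library, and the counts include BTC, which passed the filter only where it was high. The counts of members, here and below, describe genes chosen with earlier results of these data known and test nothing.

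The combination was then compared with each single drug. Against palbociclib 4 members rose (AREG, EREG, TGFA and BTC), where 9.62% of all genes rose and 17.0% changed. Against indisulam BTC and NRG1 rose, where 5.09% of all genes rose and 8.28% changed. The medians of the tested members were 1.25 and 0.50, beside 0.07 and -0.01 over all genes. These counts and medians include BTC, which reached the filter on low counts only through the combination library. No tested receptor passed the threshold in either of these comparisons.

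**Figure D3:**
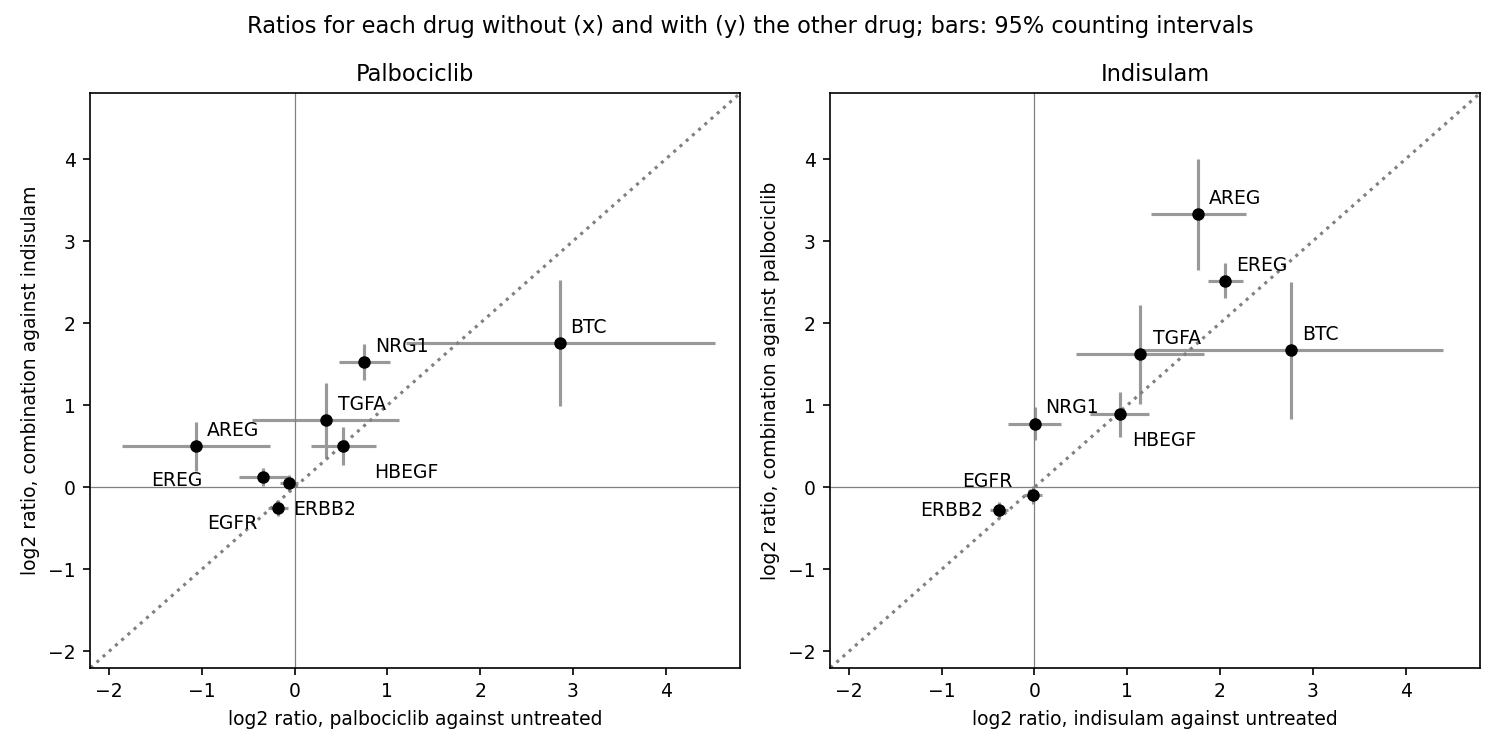
Log2 ratio for each drug without the other drug (x axis) and with it (y axis) for the 8 tested genes, with 95% counting intervals and the line of equality; the x and y values of a panel share no library. For indisulam AREG and EREG lie high on both axes, and for palbociclib AREG lies left of 0 and above 0.

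Taken as a pool, the 6 EGFR ligands had 418 reads in untreated, 416 in palbociclib, 1911 in indisulam and 1984 in combination cells. Palbociclib alone gave the sum a log2 ratio of -0.02 (-0.22 to 0.17), with EREG at -0.33 in it, and both libraries with indisulam were several-fold higher. The sum rose by 1.78 (1.63 to 1.93) on the log2 scale with indisulam over untreated cells and by 2.07 (1.92 to 2.23) with the combination over palbociclib. EREG held the largest part of these reads, and its share was lowest with palbociclib, at 48.3% (Wilson interval 43.6 to 53.1), and highest with indisulam, at 73.1% (71.0 to 74.99). Over untreated cells, palbociclib gave the sum without EREG a log2 ratio of 0.35 (0.06 to 0.64), indisulam gave it 1.21 (0.96 to 1.46) and the combination 1.82 (1.58 to 2.07).

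Levels of different genes were compared as CPM per 1000 bases of exon (RPKM), over all annotated exons of a gene. In untreated cells the RPKM level of ERBB2 (13.8) came first, then EGFR (7.22), EREG (3.50), HBEGF (2.85), AREG (1.75), NRG1 (0.634) and TGFA (0.340), with ERBB3, EPGN and BTC below 0.1. EREG and HBEGF did not differ beyond counting error there, and all other neighbours down to TGFA did. With palbociclib HBEGF (4.11) stood above EREG (2.77) in RPKM. With the combination EREG was at 15.9 RPKM, ERBB2 at 11.0, AREG at 8.57, HBEGF at 7.64, EGFR at 5.99, NRG1 at 1.83, TGFA at 1.36 and BTC at 1.29. In this last order AREG and HBEGF, and TGFA and BTC, did not differ beyond counting error.

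The level of a ligand relative to its receptor depends on which length is used. Over all exons, the RPKM level of EREG was 0.484 times that of EGFR in untreated, 0.433 times in palbociclib, 2.05 times in indisulam and 2.66 times in combination cells. Per length of the canonical transcript, a choice made after the data were seen, these ratios were 0.373, 0.333, 1.57 and 2.04, so that EREG passed from below EGFR to above it by either length. For AREG relative to EGFR the ratio was 0.242 in untreated and 1.43 in combination cells over all exons, and 0.200 and 1.18 by canonical length. EREG exceeded ERBB2 with indisulam (1.38) and with the combination (1.45) over all exons but not by canonical length (0.753 and 0.792). HBEGF was above EGFR with the combination over all exons (1.28) and level with it by canonical length (1.00).

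**Figure D4:**
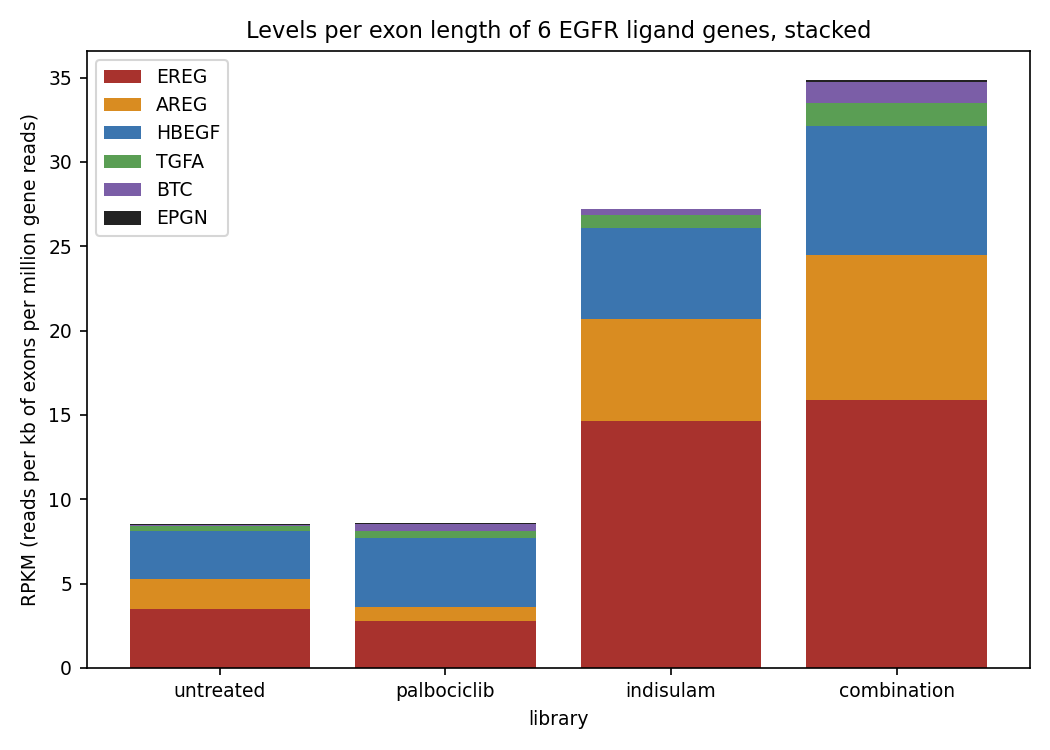
RPKM of the 6 EGFR ligands, stacked, in the 4 libraries. The stack is 8.51 in untreated, 8.57 in palbociclib, 27.2 in indisulam and 34.8 in combination cells, and EREG makes up 41.1% of it in untreated and 53.8% in indisulam cells.

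The genes around the ligand cluster were also examined. Within 500000 bp on either side of the interval from EPGN to BTC, 30 genes are listed and 8 were tested, of which 5 are not members: the chemokine genes CXCL1, CXCL2 and CXCL3, which attract neutrophils, MTHFD2L, a mitochondrial folate enzyme, and PARM1. CXCL1 had 13 reads in untreated, 29 in palbociclib, 762 in indisulam and 1246 in combination cells, with the same split of the libraries as AREG and EREG. Its log2 ratio was 5.37 with indisulam and 6.29 with the combination over untreated cells. CXCL3 gave 3.70 and 3.74 and CXCL2 gave 1.68 and 1.93, so that all 3 chemokines rose. Of the 5, 2 rose with palbociclib (CXCL1 and PARM1), 4 with indisulam and 4 with the combination, where 5.96%, 8.44% and 13.0% of all tested genes rose, and none fell. PARM1, on the far side of BTC, had 17, 169, 54 and 139 reads in the order untreated, palbociclib, indisulam and combination, and so stood highest with palbociclib. MTHFD2L, which lies next to EPGN, passed the threshold in none of the 5 comparisons (0.26 with indisulam and 0.89 with the combination). EPGN, between MTHFD2L and EREG, stayed at 4 reads or fewer.

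**Figure D5:**
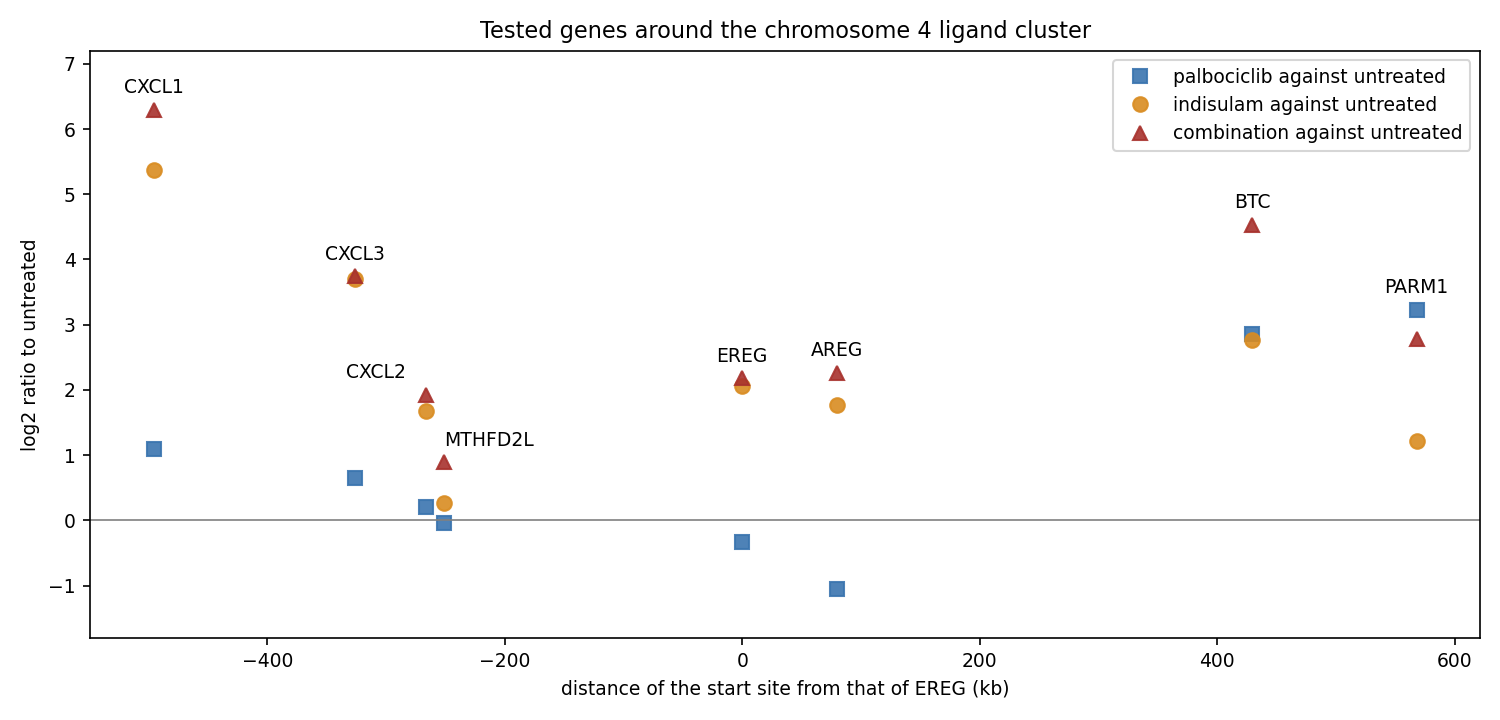
Tested genes of the chromosome 4 window and their log2 ratios to untreated in the 3 treated libraries, placed by distance from the start of EREG. The chemokine genes and the pair of AREG and EREG are high with indisulam and the combination, and BTC and PARM1 are high with every treatment.

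The genes whose 3 log2 ratios to untreated lay nearest to those of a member were sought among 11317 genes by Euclidean distance. For EREG they were ATF3 (distance 0.24), a stress-induced transcription factor, CD274 (0.29), which encodes PD-L1, and MCAM (0.30), an adhesion molecule. For AREG they were DMBT1 (0.36), RPL29P19 (0.47) and WNT7B (0.52), for HBEGF LRRC8C (0.10), UFD1 (0.11) and TTLL7 (0.13), and for NRG1 KRT75 (0.21), MAN1A1 (0.26) and TM2D2 (0.34). Likeness here is over 3 ratios that share 1 untreated library.

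The other genes of the pathway were counted from lists. Of the rest of the family, EGF itself, NRG2 and NRG4 were tested, and ERBB4 and NRG3 were not. EGF had 36 reads in untreated, 49 in palbociclib, 98 in indisulam and 138 in combination cells, an order like that of HBEGF and TGFA. EGF rose with indisulam by 1.01 (0.47 to 1.55) and with the combination by 1.72 (1.20 to 2.24). NRG4, named after its values were seen, had 34, 30, 8 and 18 reads and fell with indisulam by 2.34 on the log2 scale. The 11 genes for proteases that shed or process the ligands, and for their helpers, were all tested. None passed the threshold against untreated cells, where 10.9% of all tested genes changed with palbociclib, 15.2% with indisulam and 23.5% with the combination. Their median log2 ratio was -0.07 for the combination, beside 0.05 over all genes. For the combination against palbociclib, ADAM19 rose (1.27) and BACE1 fell by 1.01 on the log2 scale, where 17.0% of all tested genes changed. ADAM17, the main protease that frees AREG, EREG, HBEGF and TGFA, had log2 ratios of -0.42, -0.30 and -0.45 with palbociclib, indisulam and the combination.

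Of 14 tested genes that restrain the receptors or act in their turnover, LRIG1, which promotes receptor degradation, was higher in all 3 treated libraries. It had 430 reads in untreated, 1013 in palbociclib, 1266 in indisulam and 1222 in combination cells, and its log2 ratios were 1.22, 1.14 and 1.31. NEDD4, a ubiquitin ligase, rose with the combination (1.01), and the other 12 passed the threshold in no comparison with untreated cells. SH3KBP1, an adaptor of receptor internalization, rose for the combination against palbociclib (1.06), where 17.0% of all tested genes changed. The median of the 14 was 0.15 for the combination against untreated. Of 27 tested adaptors and effectors, GAB2 rose with indisulam (1.54) and the combination (1.06), and MAPK3, which encodes ERK1, and SHC1, an adaptor that binds the receptors, fell with the combination by 1.69 and 1.21 on the log2 scale. None of the 27 passed the threshold with palbociclib, and their median was -0.17 for the combination. Beside the counts of both lists, 10.9% of all tested genes changed with palbociclib, 15.2% with indisulam and 23.5% with the combination.

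Transcripts known to follow MAPK signalling moved in both directions. Of 15 genes, all tested, 6 rose and 1 fell with indisulam, 4 rose and 2 fell with the combination, and 2 rose and 1 fell with palbociclib, where 15.2%, 23.5% and 10.9% of all tested genes changed. The median log2 ratio of the 15 was 0.93 with indisulam, 0.83 with the combination and 0.13 with palbociclib. FOSL1, an AP-1 subunit, had 284 reads in untreated, 503 in palbociclib, 885 in indisulam and 1003 in combination cells, and it rose with the combination by 1.62 (1.43 to 1.81). FOS, another AP-1 subunit and an immediate early gene, had 2390, 2641, 998 and 236 reads in the same order, and it fell with the combination by 3.53 on the log2 scale. EGR1, also an immediate early gene, fell by 2.73, and CCND1, which encodes the partner of CDK4 and CDK6, rose by 1.63. CCND1 also rose with palbociclib but not with indisulam, at 171, 449, 218 and 530 CPM in the same order of libraries. The calls named after their values were seen were DUSP6, higher in all 3 treated libraries (1.16, 1.29 and 1.38), DUSP5, higher with the combination (1.11), and ETV4, which fell with palbociclib by 1.79 and rose with indisulam (1.01). Within the list, FOS and EGR1 were lowest, and FOSL1, DUSP5, DUSP6 and CCND1 highest, in the combination library. ETV5 and EPHA4, which passed the threshold in no comparison, were also highest there.

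Among 12 other tested receptor tyrosine kinases, 3 rose and 4 fell with the combination, where 13.0% of all tested genes rose and 10.6% fell. PDGFRB, a receptor of platelet-derived growth factor, fell by 2.35 and the collagen receptor DDR1 by 1.49 on the log2 scale, whereas DDR2, another collagen receptor, rose by 2.02 and ROR1, a WNT5A receptor, by 1.74. EGFR and ERBB2, with -0.27 and -0.33 in the same comparison, lay between them. MET rose (1.06) and TYRO3 and PDGFRA fell (by 1.11 and 1.30), and these 3 were named after their values were seen. The median of the 12 was -0.10.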

How the data were processed

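The labels name Trizol for RNA extraction and the study methods a silica column kit, a conflict not resolved here. RNA was made into stranded poly(A) libraries, 1 for each of the 4 conditions. Per the labels, the authors used TopHat2 2.1 and HTSeq with the build GRCh38, and they deposited counts of reads per Ensembl gene, not normalized. The strand setting, the annotation release and any pooling of duplicates are not given in the sources used here. Tallies of unassigned reads per chromosome were kept out of the totals. Reads with several alignments went to those tallies and not to genes. The sources name no batch, so that a batch and a condition cannot be told apart.

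The members and lists were chosen with earlier results of these data known. Counts were divided by the library's gene total and multiplied by the mean total of 14079773 reads. A log2 ratio was taken after adding 1 scaled count, with a 95% interval from Poisson error. Exact intervals are conditional binomial ones. All intervals and floors hold counting error alone, as the reads carry no molecular identifiers and may repeat a molecule. Genes that reached a mean of 1 CPM were tested (14269 of 60279). The departure from additivity is the log2 ratio of the combination to untreated minus the sum for the single drugs. Its scaled median absolute deviation, divided by the square root of 2, served as a bound on noise. From each list, at most 4 genes with a mean of at least 5 CPM were named, those called in any comparison with the largest ratio of combination to untreated. Around the cluster, the called genes were named, and MTHFD2L beside them after its values were seen. Positions, counted from 1, and exon lengths are from GENCODE 44. The interval step was tried on simulated libraries with Poisson error alone. That trial checks the code and cannot show how the intervals do with variation between cultures. Alternatives were scaling by TMM (edgeR 4.0.16, also upper quartile) or by DESeq2 1.42.0 size factors, other pseudocounts, filters and thresholds, and exact intervals. Python 3.11.15 and R 4.3.3 were used.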

Additional observations from a re-analysis of the deposited data

Results flagged for a closer look

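For AREG, the log2 ratio for palbociclib was -1.06 without indisulam and 0.50 with it, so that the single libraries moved in opposite directions. EREG, its neighbour on chromosome 4, went from -0.33 to 0.12 in the same pair of comparisons. For EREG these are 1.28 and 0.46 times the noise bound. With TMM factors the interval of the second holds 0 (-0.008 to 0.21), so that the sign change of EREG is within noise. With 1 library per condition the difference was not tested over replicates, and for AREG it rests on 36 reads in untreated and 17 reads in palbociclib cells.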

How the results depend on the processing

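Scaling and pseudocount were varied in 5 settings, which gave 240 log2 ratios of the members. Of these, 1 crossed the threshold (AREG, below) and 3 changed sign, all for NRG1 with indisulam against untreated, a ratio near 0 in every case (0.00 as reported, -0.07 with TMM factors). ERBB2 moved beyond its counting error with TMM factors in the combination against palbociclib (-0.37). At 1.5-fold, 6 more ratios passed, and more of all tested genes were called too. Against untreated, 25.0% were called for palbociclib, 31.6% for indisulam and 42.6% for the combination. For the combination, 33.0% were called against palbociclib and 22.4% against indisulam. Palbociclib against untreated had 1 call with a pseudocount of 5, where AREG at -0.93 was lost and 9.68% of all tested genes were called. A mean of at least 5 CPM leaves 6 members and removes BTC and TGFA. Against untreated, the calls were then 1 for palbociclib, 2 for indisulam and 4 for the combination. Of all genes at that filter, 7.33%, 10.7% and 18.5% were called. The combination had 2 calls against palbociclib and 1 against indisulam, where 12.3% and 4.78% of all genes were called. Without the filter ERBB3 adds a lower call against untreated for palbociclib (3 calls), indisulam (5) and the combination (7). In these comparisons 3.56%, 5.00% and 7.63% of all 60279 listed genes were called, of which 29056 had a read. At 1.5-fold, 2 of the 8 tested members departed from additivity, with NRG1 added, as did 19.1% of all tested genes. By canonical transcript length EREG was below ERBB2 with indisulam (0.753) and the combination (0.792), and in both it was above over all exons. No paired analysis was possible because each condition has 1 library. The low counts of BTC, TGFA, EPGN and ERBB3 limit what can be said of them, and no setting replaces a replicate.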
